A study of Mus musculus with 25 samples.

Results

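The 10 genes described here are grouped as ductular and epithelial progenitor genes: Krt7, Krt8, Krt18, Krt19, Epcam, Sox9, Cdh1, Spp1, Mmp7 and Ddit4l. Most are genes of bile duct epithelium, liver progenitor cells or epithelial cell contacts. Ddit4l is not of these kinds and restrains the growth kinase complex mTORC1. All were taken by gene symbol from the 5 expression tables of a mouse liver RNA-seq study. They are 10 of 30524 genes listed in any table, and all 10 were among the 12741 genes tested. The livers came from male C3H/HeJ mice that were 5 weeks old on receipt. Diethylnitrosamine (DEN), an alkylating carcinogen that hepatocytes activate, was given by intraperitoneal injection at 25 mg/kg, 2 times a week in 5 cycles of 3 weeks with rest weeks between. After a month without injections the mice received drugs or vehicles through the stomach for 3 weeks.

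The DEN group (n = 6 livers) had the carcinogen and then vehicles. The DEN_CAF group (n = 5) had the carcinogen and then caffeine (CAF) at 50 mg/kg, 3 times a week. The DEN_SOR group (n = 4) had the carcinogen and then sorafenib (SOR), an oral multikinase inhibitor used against liver cancer, at 30 mg/kg, 2 times a week in corn oil with 2% DMSO. The DEN_CAF_SOR group (n = 5) had the carcinogen and then both drugs on the same schedules. The Untreated group (n = 5) had 0.9% saline in place of the carcinogen and vehicles in place of the drugs. The sample records list 2% DMSO for every group, DEN, DEN_CAF and Untreated included. The titles give each library as 1 mouse, and the tissue label is liver without saying whether nodules or the tissue around them were taken.

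As background, bile ducts are lined by cholangiocytes, which carry the keratins Krt7 and Krt19 and the adhesion protein Epcam, whereas hepatocytes carry Krt8 and Krt18 as their main keratin pair. After chronic injury the liver grows small duct-like strands, the ductular reaction, whose cells carry Sox9, Spp1 and Epcam, and hepatocytes under injury can also switch on part of this set. Whether more cells of a type or more RNA per cell lies behind a level cannot be told apart in RNA from whole pieces of liver.

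Assigned reads ran from 14750278 to 21992613 per library, and genes of the mitochondrial chromosome took 5.65% to 34.8% of them. DEN_SOR 4 had both the lowest depth and the highest mitochondrial share. High shares were confined to libraries numbered 3 or 4. They were 33.4% in DEN 3, 23.6% and 23.1% in DEN_CAF 3 and 4, and 13.6% in DEN_SOR 3. They were 15.7% and 18.7% in DEN_CAF_SOR 3 and 4 and 13.5% in Untreated 3. DEN 4 (9.58%) and Untreated 4 (6.36%) did not share this. Among libraries with other numbers the highest share was 9.81%, in DEN_CAF 2. Untreated 3, 4 and 5 go against the male label: Xist, a noncoding RNA made in female cells, had 13370 to 29770 reads there and at most 21 reads in every other library. Counts of called genes against Untreated are therefore given with and without these 3 livers, whereas the levels and fold changes of single genes use all 5 unless stated. DEN 4 had 132 reads of the Y-linked gene Ddx3y, where the other libraries with low Xist had 914 to 1689 and Untreated 3, 4 and 5 had 30 to 84. All 10 of 10 hepatocyte markers were detected in each group, with summed levels of 26443 to 89305 FPKM in carcinogen-exposed livers and 39354 to 54328 FPKM in Untreated livers. Levels are given as FPKM, reads scaled to gene length in kilobases and to the assigned reads of the library. Mitochondrial reads are part of that total, so a high share of them lowers the FPKM of other genes. Changes are given as log2 fold changes of FPKM + 1 from limma. Their p-values were adjusted over all genes tested, a gene being called below 0.05.

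All 10 genes had a higher mean in each of the 4 carcinogen-exposed groups than in Untreated livers, and how many were called differed between the groups. In DEN livers 4 of the 10 rose against Untreated, Krt18, Sox9, Cdh1 and Ddit4l, where 1.00% of all genes tested were called higher. In DEN_CAF livers 5 rose (Krt18, Epcam, Spp1, Mmp7 and Ddit4l; 0.683% of all genes tested were called higher). In DEN_SOR livers 7 rose (Krt7, Krt18, Krt19, Epcam, Spp1, Mmp7 and Ddit4l; 1.64%), and in DEN_CAF_SOR livers Spp1 alone rose (0.212%). The 4 comparisons share their Untreated livers, so they are not independent of each other.

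Over the 10 genes the median log2 fold change was 1.10 in DEN, 1.23 in DEN_CAF, 1.34 in DEN_SOR and 0.87 in DEN_CAF_SOR livers against Untreated, beside 0.03, 0.04, -0.00 and 0.03 over all genes tested. The 10 genes were chosen with earlier results of these data known. Their counts and medians beside all genes therefore describe the set and do not test it. Epcam, Spp1, Mmp7 and Ddit4l lay above every Untreated liver in each of the 20 carcinogen-exposed livers, a pattern that 0.675% of all genes tested showed (by group, 2.60% in DEN, 4.12% in DEN_CAF, 4.29% in DEN_SOR and 3.12% in DEN_CAF_SOR). Of the others, Krt8, Krt18 and Cdh1 lay above every Untreated liver in 19, Krt19 in 18, Sox9 in 17 and Krt7 in 16 of the 20. Krt7, Epcam, Sox9, Mmp7 and Ddit4l were below 1 FPKM in all 5 Untreated livers, so they passed the filter for testing only through exposed livers.

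The number of calls depends on the model and on the Untreated livers. edgeR's quasi-likelihood test on the recovered reads called 9 genes higher in DEN (2.63% of all genes tested), 6 in DEN_CAF (1.07%), 7 in DEN_SOR (2.68%) and 5 in DEN_CAF_SOR livers (0.706%). DESeq2 called 10 (5.09%), 9 (2.16%), 9 (5.72%) and 7 (1.81%). Without Untreated 3, 4 and 5, limma called 0 in each of the 4 comparisons (0.167%, 0.0876%, 0.151% and 0% of all genes tested were called higher) although 8, 8, 8 and 5 of the 10 had an unadjusted p below 0.05 in DEN, DEN_CAF, DEN_SOR and DEN_CAF_SOR, as had 12.5%, 11.3%, 12.7% and 7.63% of all genes tested. edgeR called Ddit4l alone in DEN (0.165%), DEN_CAF (0.133%) and DEN_SOR (0.243%) and 0 in DEN_CAF_SOR (0.00785%). All 10 log2 fold changes of limma stayed positive without these livers, with medians of 1.13, 1.22, 1.29 and 0.83.

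**Figure D1:**
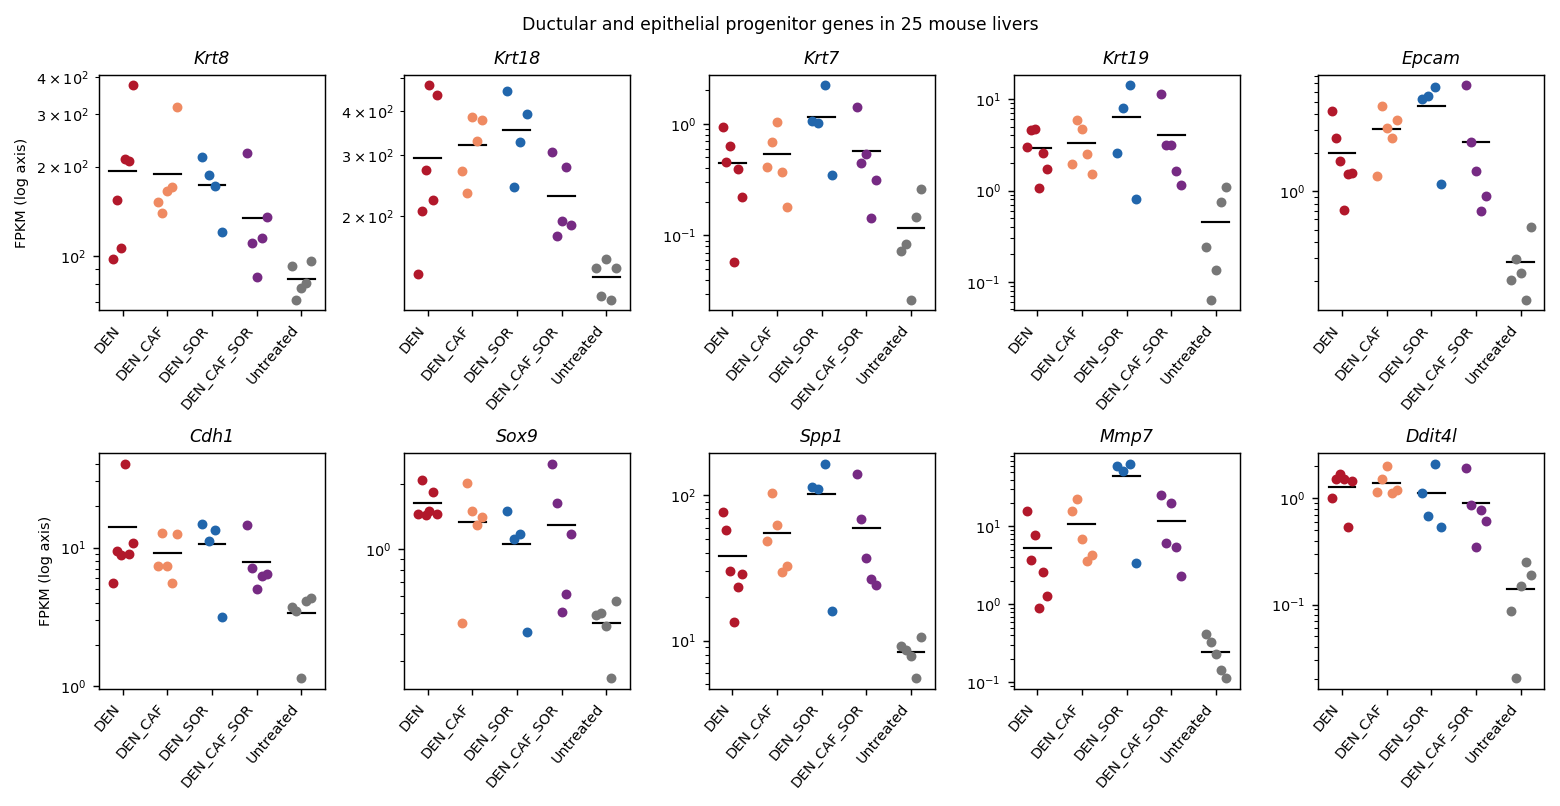
FPKM on a log axis of the 10 genes in each of 25 livers, 1 panel per gene with its own axis, points for livers in replicate order and lines for group means. Epcam, Spp1, Mmp7 and Ddit4l show no overlap between the 20 carcinogen-exposed livers and the Untreated livers, and DEN_SOR 4 lies below the other DEN_SOR livers for 9 of the 10 genes.

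**Figure D2:**
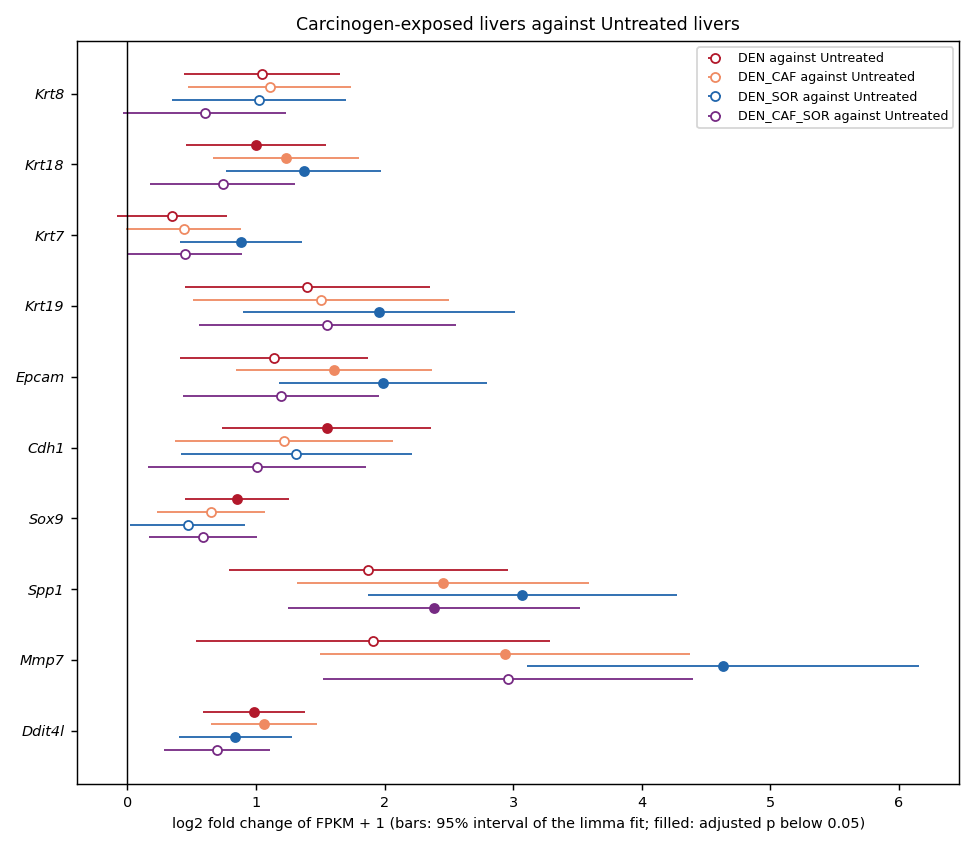
Log2 fold change of FPKM + 1 against Untreated for each gene and carcinogen-exposed group, with 95% intervals of the limma fit, filled where the adjusted p was below 0.05. The changes of Mmp7 run from 1.91 in DEN to 4.63 in DEN_SOR livers, and those of Krt7 from 0.35 to 0.89.

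The promoters of the 5 genes called in at least 2 of these comparisons are shown because they let their sequence contexts be compared. RefSeq windows (GRCm38.p6, 250 bases before to 50 after a gene's start, 5′ to 3′ on the gene's strand) were found for 7 of the 10 genes, and not for Krt19, Sox9 and Cdh1. The windows shown, first listed per gene, lie on the plus strand at chr15:102027966-102028265 (Krt18), chr17:87635729-87636028 (Epcam), chr5:104434861-104435160 (Spp1), chr9:7691840-7692139 (Mmp7) and chr3:137623422-137623721 (Ddit4l). Capitals mark matches, on either strand, to the motifs of 6 factor classes or promoter elements spelled out after the sequences, and no matches overlap each other in these windows.
Krt18: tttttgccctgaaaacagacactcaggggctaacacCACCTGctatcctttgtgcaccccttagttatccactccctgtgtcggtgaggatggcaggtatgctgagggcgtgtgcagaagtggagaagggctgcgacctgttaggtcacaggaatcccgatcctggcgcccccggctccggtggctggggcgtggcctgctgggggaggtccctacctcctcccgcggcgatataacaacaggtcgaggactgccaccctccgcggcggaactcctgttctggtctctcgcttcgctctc
Epcam: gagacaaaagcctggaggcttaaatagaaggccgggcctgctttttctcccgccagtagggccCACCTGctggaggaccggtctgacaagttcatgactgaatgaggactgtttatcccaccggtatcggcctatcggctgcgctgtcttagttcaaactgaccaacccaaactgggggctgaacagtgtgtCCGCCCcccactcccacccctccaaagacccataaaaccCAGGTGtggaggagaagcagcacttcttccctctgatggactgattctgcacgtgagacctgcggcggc
Spp1: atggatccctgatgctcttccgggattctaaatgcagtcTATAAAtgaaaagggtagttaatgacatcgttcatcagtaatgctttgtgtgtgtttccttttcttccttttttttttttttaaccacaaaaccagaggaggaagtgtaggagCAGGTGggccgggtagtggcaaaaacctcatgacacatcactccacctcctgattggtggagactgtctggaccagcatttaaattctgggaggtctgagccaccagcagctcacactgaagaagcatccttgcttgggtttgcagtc
Mmp7: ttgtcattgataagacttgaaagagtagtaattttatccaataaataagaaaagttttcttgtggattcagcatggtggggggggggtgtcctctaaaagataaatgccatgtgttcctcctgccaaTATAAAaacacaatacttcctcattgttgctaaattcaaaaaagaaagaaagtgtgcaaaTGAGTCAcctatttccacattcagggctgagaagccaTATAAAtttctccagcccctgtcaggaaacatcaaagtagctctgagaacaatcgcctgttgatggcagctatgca
Ddit4l: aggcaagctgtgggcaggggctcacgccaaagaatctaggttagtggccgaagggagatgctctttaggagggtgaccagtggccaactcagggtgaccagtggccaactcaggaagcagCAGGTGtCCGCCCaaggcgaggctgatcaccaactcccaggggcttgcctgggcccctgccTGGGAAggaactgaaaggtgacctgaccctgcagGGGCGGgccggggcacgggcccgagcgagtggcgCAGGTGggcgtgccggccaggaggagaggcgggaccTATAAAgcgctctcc
The E-box core CAGGTG, a sequence that the Cdh1 repressors Snai1 and Zeb1 bind, was found in the first listed window of 6 of the 7 genes (Krt7, Krt8, Krt18, Epcam, Spp1 and Ddit4l), against 20.2% of 32851 mouse windows. The first listed window of Mmp7 was the exception and held the only match among the 7 to the AP-1 motif TGANTCA, 63 bases before the start. It also held the TATA box letters TATAAA, 123 and 26 bases before the start. These letters stood in the windows of Krt8, Spp1 and Ddit4l as well, 4 of the 7. Their positions from the start were -3 and -1 in Krt8, -211 in Spp1 and 36, after the start, in Ddit4l. Whether any of them acts as a TATA box was not tested. AP-1 letters stood in 7.81% and TATAAA in 13.6% of all windows. Among the first listed windows, the GC box GGGCGG stood in Krt7, Epcam and Ddit4l (35.7% of all windows). The RBPJ core TGGGAA stood in Krt8 and Ddit4l (25.6%) and the TEAD core GGAATG in none of the 7 (14.7%). Mmp7 and Spp1 each had a further listed window. That of Mmp7 held the E-box core at -164 and the RBPJ core at -113 from its own start. The further window of Spp1 held no match. These matches describe the letters of the windows and are not binding data.

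Krt8 and Krt18, the keratin pair of hepatocytes that together form their intermediate filaments, had the highest mean FPKM of the 10 genes in every group. Krt18 rose in 3 exposed groups and Krt8 in none by limma. Krt18 (chr15:101936615-101940462 on GRCm39, plus strand) ran from 136 to 475 FPKM with a median of 246 in the 6 DEN livers. It was 270.1, 233, 386, 329 and 378 FPKM in DEN_CAF livers and 456, 242, 326 and 392 FPKM in DEN_SOR livers. It was 306, 176, 193, 277 and 189 FPKM in DEN_CAF_SOR livers and 142, 118, 151, 115 and 142 FPKM in Untreated livers. Only DEN 1, at 136 FPKM, fell within the Untreated range. The log2 fold change against Untreated was 1.00 in DEN (SE 0.26, adjusted p = 0.0447), 1.23 in DEN_CAF (SE 0.27, adjusted p = 0.0242) and 1.37 in DEN_SOR livers (SE 0.29, adjusted p = 0.0124). It was 0.74 in DEN_CAF_SOR livers (SE 0.27, adjusted p = 0.281), which is not a call.

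Krt8 (chr15:101905133-101912917, minus strand) lies 23698 bases from Krt18 on the opposite strand. It ran from 97.5 to 376 FPKM with a median of 182 in DEN livers and was 151, 139, 165, 171 and 319 FPKM in DEN_CAF livers. It was 215, 188, 172 and 120.1 FPKM in DEN_SOR livers, 222, 111, 84.5, 115 and 136 FPKM in DEN_CAF_SOR livers and 92.5, 71.1, 77.7, 80.6 and 96.3 FPKM in Untreated livers. DEN_CAF_SOR 3 was the single exposed liver inside the Untreated range. Its log2 fold changes were 1.05 in DEN, 1.11 in DEN_CAF, 1.02 in DEN_SOR and 0.60 in DEN_CAF_SOR livers, with adjusted p-values of 0.0607, 0.0801, 0.0878 and 0.466, none of them a call. edgeR called it in DEN livers (log2 fold change 1.16, adjusted p = 0.0202).

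The calls of Krt18 rest on several single livers. Here and for the genes that follow, the ranges in parentheses are over every fit that left out 1 liver of either group, whether or not the call was lost. In DEN, leaving out DEN 3, 4, 5 or 6 or any single Untreated liver ended the call (log2 fold changes of 0.84 to 1.19, adjusted p up to 0.103). In DEN_CAF it was lost without DEN_CAF 3, 4 or 5 or Untreated 2 or 4 (1.16 to 1.34, adjusted p up to 0.0798), and in DEN_SOR without DEN_SOR 1 alone (1.24 to 1.54, adjusted p up to 0.0693).

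Krt7 and Krt19, the keratins of bile duct cells, were far lower per length than the hepatocyte pair in every liver. Krt19 (chr11:100031636-100039491, minus strand) ran from 1.07 to 4.76 FPKM with a median of 2.75 in DEN livers and was 1.95, 5.87, 4.66, 2.50 and 1.502 FPKM in DEN_CAF livers. It was 2.57, 8.05, 14.2 and 0.804 FPKM in DEN_SOR livers, 11.3, 3.16, 3.15, 1.64 and 1.14 FPKM in DEN_CAF_SOR livers and 0.240, 0.0639, 0.135, 0.754 and 1.08 FPKM in Untreated livers. Untreated 5 lay just above the lowest DEN liver, DEN 4, and above DEN_SOR 4, while the DEN_CAF and DEN_CAF_SOR livers were all higher. Krt19 rose in DEN_SOR livers (log2 fold change 1.96, SE 0.51, adjusted p = 0.0396), while its values of 1.40, 1.505 and 1.56 in DEN, DEN_CAF and DEN_CAF_SOR livers had adjusted p-values of 0.115, 0.148 and 0.160.

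Krt7 (chr15:101308924-101328194, plus strand) was low throughout and reached 1 FPKM in 5 livers. It ran from 0.0575 to 0.933 FPKM with a median of 0.423 in DEN livers and was 0.414, 0.690, 1.04, 0.372 and 0.181 FPKM in DEN_CAF livers. It was 1.06, 1.02, 2.21 and 0.346 FPKM in DEN_SOR livers, 1.42, 0.445, 0.538, 0.144 and 0.316 FPKM in DEN_CAF_SOR livers and 0.0722, 0.0841, 0.0266, 0.147 and 0.259 FPKM in Untreated livers. The DEN_SOR livers alone lay wholly above the Untreated range. Krt7 rose there (log2 fold change 0.89, SE 0.23, adjusted p = 0.0382), at 36 to 285 reads per library in DEN_SOR and 3 to 30 in Untreated livers. The calls of both genes in DEN_SOR were lost without any 1 Untreated liver or without DEN_SOR 1, 2 or 3, while both held without DEN_SOR 4. Over all fits that left out 1 liver, the log2 fold changes ran from 1.47 to 2.49 for Krt19 and from 0.67 to 1.09 for Krt7, with adjusted p up to 0.149 and 0.146.

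Krt7 and Krt19 together made 0.920% of the FPKM of the 4 keratins in DEN livers (0.163% to 1.64%) and 0.826% in DEN_CAF livers (0.241% to 1.73%). They made 1.504% in DEN_SOR livers (0.224% to 3.18%), 1.16% in DEN_CAF_SOR livers (0.446% to 2.36%) and 0.260% in Untreated livers (0.0705% to 0.560%). Every exposed group overlapped the Untreated livers in this share. The ratio of Krt8 to Krt18 averaged 0.681 in DEN, 0.590 in DEN_CAF, 0.520 in DEN_SOR, 0.586 in DEN_CAF_SOR and 0.630 in Untreated livers, with overlapping ranges.

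**Figure D3:**
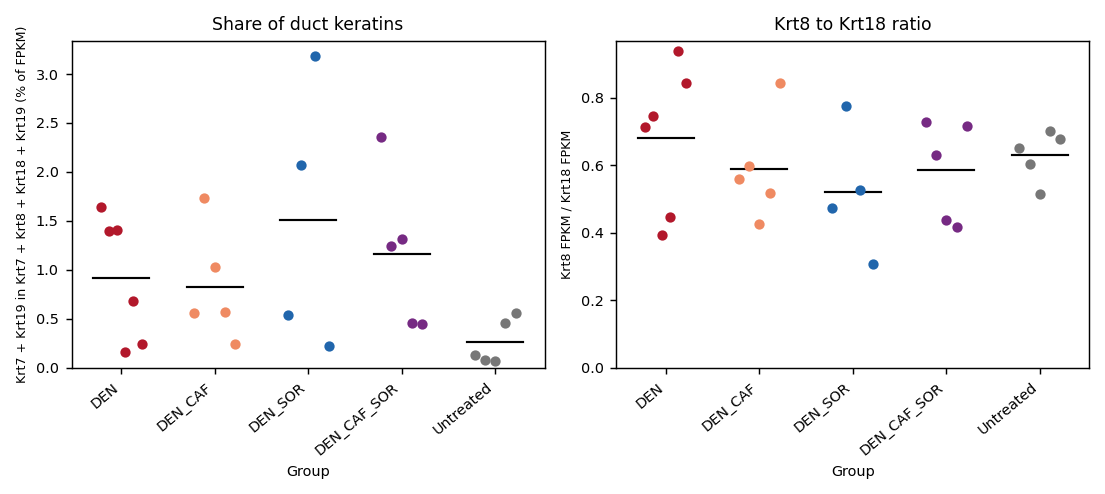
Left, share of Krt7 and Krt19 in the summed FPKM of Krt7, Krt8, Krt18 and Krt19 (%) per liver; right, ratio of Krt8 to Krt18 FPKM; lines mark group means. The share reaches 3.18% in DEN_SOR 3 and stays at or below 0.560% in Untreated livers, while the ratios overlap in all groups.

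Epcam, a homophilic adhesion protein of duct and progenitor cells, separated every exposed liver from every Untreated liver. Epcam (chr17:87943407-87958557, plus strand) ran from 0.716 to 4.23 FPKM with a median of 1.55 in DEN livers and was 1.31, 4.62, 3.11, 2.60 and 3.57 FPKM in DEN_CAF livers. It was 5.23, 5.53, 6.49 and 1.14 FPKM in DEN_SOR livers, 6.72, 2.40, 1.42, 0.704 and 0.912 FPKM in DEN_CAF_SOR livers and 0.203, 0.297, 0.228, 0.142 and 0.527 FPKM in Untreated livers. The lowest exposed liver, DEN_CAF_SOR 4, stayed above the highest Untreated liver. Epcam rose in DEN_CAF (log2 fold change 1.61, SE 0.37, adjusted p = 0.0303) and DEN_SOR livers (1.99, SE 0.39, adjusted p = 0.00633), and had 1.14 in DEN (adjusted p = 0.0905) and 1.19 in DEN_CAF_SOR livers (adjusted p = 0.160). No left-out liver ended its call in DEN_SOR (1.80 to 2.40), whereas in DEN_CAF the call was lost without any 1 Untreated liver or DEN_CAF 2, 3, 4 or 5 (1.47 to 1.79, adjusted p up to 0.0938).

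Cdh1 encodes E-cadherin, the calcium-dependent adhesion protein of adherens junctions in ducts and periportal hepatocytes. Cdh1 (chr8:107329983-107396878, plus strand) ran from 5.55 to 40.2 FPKM with a median of 9.22 in DEN livers and was 7.42, 12.6, 7.33, 5.52 and 12.5 FPKM in DEN_CAF livers. It was 14.7, 11.2, 13.3 and 3.16 FPKM in DEN_SOR livers, 14.5, 7.17, 5.01, 6.198 and 6.47 FPKM in DEN_CAF_SOR livers and 3.73, 3.46, 1.15, 4.10 and 4.36 FPKM in Untreated livers. DEN_SOR 4 alone fell inside the Untreated range, and DEN 4 stood far above the other DEN livers. Cdh1 rose in DEN livers (log2 fold change 1.55, SE 0.39, adjusted p = 0.0381), and its values of 1.22, 1.31 and 1.01 in DEN_CAF, DEN_SOR and DEN_CAF_SOR livers had adjusted p-values of 0.178, 0.0997 and 0.339. The call in DEN was lost without DEN 2, 3, 4 or 6 or any 1 Untreated liver (1.1998 to 1.73, adjusted p up to 0.121).

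Sox9, the transcription factor of duct and progenitor cells, had its highest mean in livers given carcinogen alone. Sox9 (chr11:112673050-112678586, plus strand) ran from 1.43 to 2.10 FPKM with a median of 1.47 in DEN livers and was 0.451, 2.03, 1.504, 1.29 and 1.40 FPKM in DEN_CAF livers. It was 1.503, 1.11, 1.17 and 0.410 FPKM in DEN_SOR livers, 2.49, 1.64, 0.508, 0.619 and 1.17 FPKM in DEN_CAF_SOR livers and 0.492, 0.502, 0.439, 0.250 and 0.574 FPKM in Untreated livers. The DEN group was the one group wholly above the Untreated livers, and DEN_CAF 1, DEN_SOR 4 and DEN_CAF_SOR 3 fell inside their range. Sox9 rose in DEN (log2 fold change 0.85, SE 0.20, adjusted p = 0.0210), a call lost without Untreated 3 or Untreated 4 (0.80 to 0.88 over all left-out livers, adjusted p up to 0.0643). Its values in DEN_CAF, DEN_SOR and DEN_CAF_SOR livers were 0.65, 0.47 and 0.59, with adjusted p-values of 0.141, 0.243 and 0.234.

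Spp1 encodes osteopontin, a secreted phosphoprotein that cholangiocytes make and that binds integrins and CD44. Spp1 (chr5:104582984-104588916, plus strand) ran from 13.4 to 76.5 FPKM with a median of 29.5 in DEN livers and was 48.2, 104, 62.2, 29.6 and 32.4 FPKM in DEN_CAF livers. It was 115, 109.7, 165 and 15.96 FPKM in DEN_SOR livers, 139.9, 69.1, 36.8, 26.6 and 24.1 FPKM in DEN_CAF_SOR livers and 9.22, 8.67, 7.85, 5.53 and 10.7 FPKM in Untreated livers. A transcript of unsettled status on the same strand, Gm42793, overlaps Spp1 and averaged at most 0.0855 FPKM in DEN, DEN_SOR and Untreated livers. All exposed livers lay above the Untreated range in Spp1, the lowest being DEN 4 and DEN_SOR 4. Spp1 rose in DEN_CAF (log2 fold change 2.46, SE 0.55, adjusted p = 0.0251), DEN_SOR (3.07, SE 0.58, adjusted p = 0.00515) and DEN_CAF_SOR livers (2.38, SE 0.55, adjusted p = 0.0476), and had 1.87 in DEN livers (SE 0.53, adjusted p = 0.0607). Its call in DEN_SOR held without each liver in turn (2.70 to 3.802). In DEN_CAF it was lost without DEN_CAF 2 or 3 or Untreated 2, 3 or 4 (2.19 to 2.64, adjusted p up to 0.0828), and in DEN_CAF_SOR without any 1 liver except DEN_CAF_SOR 5 (2.00 to 2.62, adjusted p up to 0.140).

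Mmp7, matrilysin, a secreted protease that biliary epithelium makes in injury, had the largest log2 fold change of the 10 genes in each of the 4 comparisons with Untreated. Mmp7 (chr9:7692091-7699586, plus strand) ran from 0.902 to 15.6 FPKM with a median of 3.13 in DEN livers and was 15.7, 22.6, 6.96, 3.61 and 4.35 FPKM in DEN_CAF livers. It was 59.1, 51.3, 64.1 and 3.43 FPKM in DEN_SOR livers, 25.6, 6.17, 20.01, 5.44 and 2.29 FPKM in DEN_CAF_SOR livers and 0.417, 0.333, 0.234, 0.145 and 0.114 FPKM in Untreated livers. No exposed liver overlapped the Untreated livers, which held 2 to 7 reads of the gene each. The ratio of mean FPKM to Untreated was 21.3 in DEN, 42.8 in DEN_CAF, 179 in DEN_SOR and 47.8 in DEN_CAF_SOR livers.

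Mmp7 rose in DEN_CAF (log2 fold change 2.93, SE 0.70, adjusted p = 0.0374) and DEN_SOR livers (4.63, SE 0.74, adjusted p = 0.00149), and had 1.91 in DEN (SE 0.67, adjusted p = 0.138) and 2.96 in DEN_CAF_SOR livers (SE 0.70, adjusted p = 0.0562). edgeR called it in all 4 groups, with log2 fold changes of 4.31, 5.30, 7.34 and 5.47 and adjusted p-values of 0.01004, 0.00354, 0.000248 and 0.00474 in DEN, DEN_CAF, DEN_SOR and DEN_CAF_SOR. The call in DEN_SOR held without each liver in turn (4.27 to 5.57, adjusted p up to 0.0104), and that in DEN_CAF was lost without any 1 Untreated liver or DEN_CAF 1, 2 or 3 (2.61 to 3.20, adjusted p up to 0.110). Cbx3-ps8, a processed pseudogene 23562 bases from Mmp7 on the same strand, was named after its values were seen. Its level averaged 7.89 FPKM in DEN_SOR and 0.0216 FPKM in Untreated livers (log2 fold change 2.44, adjusted p = 0.0278). Mmp20, 17111 bases from Mmp7 on the same strand, averaged 0 FPKM in both.

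Ddit4l, a relative of Ddit4 (REDD1) that restrains the growth kinase complex mTORC1, separated the exposed from the Untreated livers as well, at low levels. Ddit4l (chr3:137327373-137334094, plus strand) ran from 0.534 to 1.69 FPKM with a median of 1.49 in DEN livers and was 1.14, 1.51, 2.02, 1.13 and 1.19 FPKM in DEN_CAF livers. It was 1.13, 0.675, 2.12 and 0.535 FPKM in DEN_SOR livers, 1.93, 0.873, 0.351, 0.768 and 0.610 FPKM in DEN_CAF_SOR livers and 0.0872, 0.0203, 0.150, 0.249 and 0.188 FPKM in Untreated livers. These are 20 to 113 reads per exposed library and 1 to 14 per Untreated library. Ddit4l rose in DEN (log2 fold change 0.99, SE 0.19, adjusted p = 0.00698), DEN_CAF (1.06, SE 0.20, adjusted p = 0.00659) and DEN_SOR livers (0.84, SE 0.21, adjusted p = 0.0361), and had 0.70 in DEN_CAF_SOR livers (SE 0.20, adjusted p = 0.124).

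The call of Ddit4l held without each liver in turn in DEN (0.93 to 1.10) and DEN_CAF (0.98 to 1.10). In DEN_SOR it was lost without DEN_SOR 1 or 3 or any 1 Untreated liver (0.63 to 0.97, adjusted p up to 0.134). Without Untreated 3, 4 and 5 edgeR still called it in DEN (4.42, adjusted p = 0.0179), DEN_CAF (4.49, adjusted p = 0.0184) and DEN_SOR (4.17, adjusted p = 0.0371). Its relative Ddit4 averaged 7.20 FPKM in DEN, 6.70 in DEN_CAF, 7.30 in DEN_SOR, 6.00 in DEN_CAF_SOR and 1.99 in Untreated livers without being called. Of 12 genes of the Ddit4 and mTORC1 stress inhibitor list tested, 0 were called in DEN livers and 1, Sesn2, rose in DEN_SOR livers (log2 fold change 0.89, adjusted p = 0.0496). Of all genes tested, 1.64% were called higher in DEN_SOR livers.

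Set in order by group mean, Untreated was lowest for all 10 genes. DEN_SOR was highest for Krt7, Krt18, Krt19, Epcam, Spp1 and Mmp7, DEN for Krt8, Sox9 and Cdh1, and DEN_CAF for Ddit4l. For Cdh1 this rests on DEN 4: without it the DEN mean was 8.72 FPKM, below DEN_SOR at 10.6 and DEN_CAF at 9.08 FPKM. Neighbouring exposed groups overlapped in that order for each gene. The exposed group with the lowest mean and Untreated did not overlap for Krt18, Epcam, Cdh1, Spp1, Mmp7 and Ddit4l. Groups with higher means did overlap Untreated for Krt18 (DEN 1, at 136 FPKM) and Cdh1 (DEN_SOR 4, at 3.16 FPKM).

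Single livers ordered the genes in distinct ways. Krt7, Krt19, Epcam, Spp1 and Mmp7 went up and down together over the 25 livers, with Spearman's rho of 0.848 to 0.942 between pairs, a description over livers that share their library totals and group differences. Krt8 and Krt18 had a rho of 0.792 with each other and of 0.238 to 0.618 with those 5 genes. Krt8 had a rho of 0.832 with Cdh1. DEN 4 had the highest Krt18 and Cdh1 of the DEN livers and the lowest Krt7, Krt19, Epcam, Spp1 and Mmp7, and DEN 1 had the highest Krt7, Epcam, Spp1 and Mmp7 and the lowest Krt8, Krt18 and Cdh1. DEN_CAF_SOR 1 had the highest level of all 10 genes in its group, and DEN_SOR 4 the lowest of 9, Krt18 being the exception.

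Other measures stood apart in the same livers. The summed FPKM of 6 neutrophil markers was 424 in DEN 4 and 3.66 to 55.1 in all other livers, and the hepatocyte sum was highest in DEN 4. The macrophage and the stellate cell sums were highest in DEN_CAF_SOR 1, at 272 and 95.7 FPKM. DEN_SOR 4 had the highest mitochondrial share. The part of these measures in the levels of the 10 genes was not tested. With DEN_SOR 4 left out, 8 of the 10 genes were called in DEN_SOR against Untreated, where 2.62% of all genes tested were called higher, beside 1.64% with it.

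**Figure D4:**
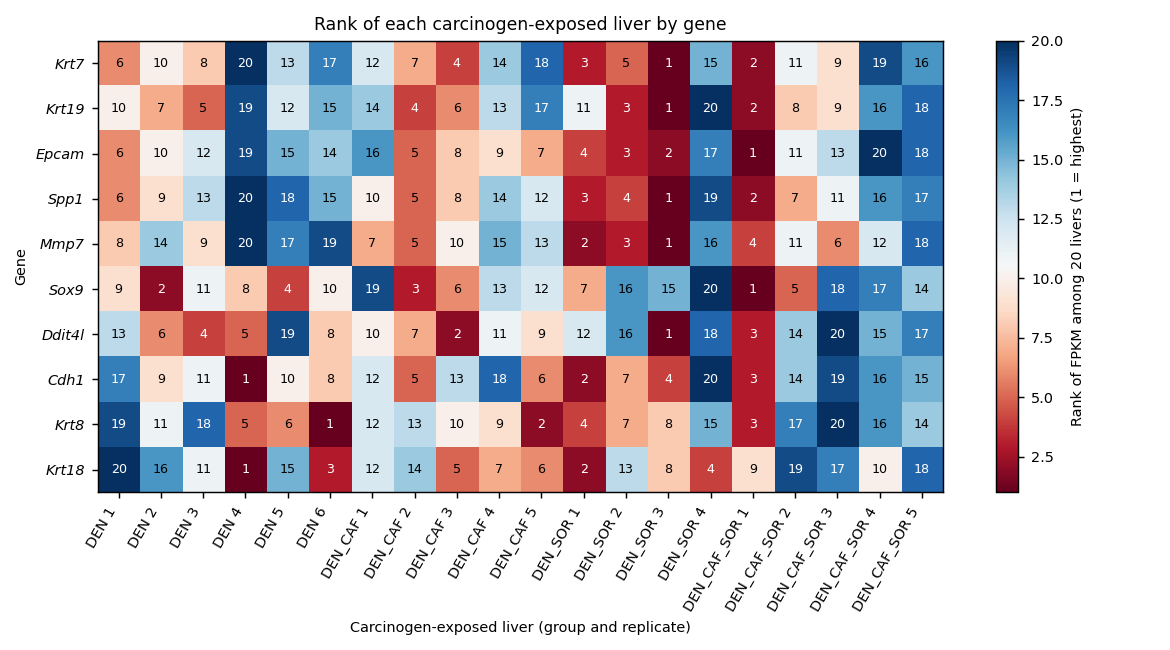
Rank of FPKM among the 20 carcinogen-exposed livers for each gene (1 is highest), with livers in group order. DEN 4 ranks 19 or 20 for Krt7, Krt19, Epcam, Spp1 and Mmp7 and 1 for Cdh1 and Krt18, and DEN_SOR 3 ranks 1 or 2 for Krt7, Krt19, Epcam, Spp1 and Mmp7.

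The drug groups were compared with DEN to ask what caffeine, sorafenib or both added after the carcinogen. None of the 10 genes was called by limma in DEN_CAF, DEN_SOR or DEN_CAF_SOR against DEN, where 0.00785%, 0% and 0% of all genes tested were called, nor in DEN_CAF_SOR against DEN_SOR (0%) or DEN_CAF (0%), nor for the interaction of the drugs (0%). At an unadjusted p below 0.05 the counts were 0 in DEN_CAF, 4 in DEN_SOR and 0 in DEN_CAF_SOR against DEN, where 2.81%, 6.19% and 2.72% of all genes tested had such a p. They were 2 in DEN_CAF_SOR against DEN_SOR, 0 in DEN_CAF_SOR against DEN_CAF and 3 for the interaction, where 3.39%, 2.95% and 3.97% of all genes tested had such a p. edgeR called 0 in all 6 comparisons, and DESeq2 called 1, Mmp7 in DEN_SOR against DEN (0.243% of all genes tested). DESeq2 called 0.0785% of all genes tested in DEN_CAF and 0% in DEN_CAF_SOR against DEN, 0.00785% in DEN_CAF_SOR against DEN_SOR, 0.00785% against DEN_CAF and 0.0863% for the interaction.

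Mmp7 averaged 44.5 ± 27.9 FPKM in DEN_SOR livers (SD, n = 4) and 5.29 ± 5.60 FPKM in DEN livers (SD, n = 6), and 3 of 4 DEN_SOR livers lay above all DEN livers. The log2 fold change was 2.72 (95% interval 1.25 to 4.19, adjusted p = 0.462), 3.03 with edgeR (adjusted p = 0.247) and 3.03 with DESeq2 (adjusted p = 0.0450). Without DEN_SOR 4 it was 3.65 (adjusted p = 0.0706). Krt7, Epcam and Spp1 were the other genes with an unadjusted p below 0.05 there, with log2 fold changes of 0.54 (95% interval 0.08 to 0.99), 0.85 (0.07 to 1.63) and 1.198 (0.04 to 2.36) and adjusted p-values of 0.773, 0.787 and 0.793. Krt8 (-0.03, 95% interval -0.67 to 0.62), Sox9 (-0.38, -0.82 to 0.05), Cdh1 (-0.24, -1.10 to 0.63) and Ddit4l (-0.15, -0.57 to 0.28) had values near or below 0. Krt18 and Krt19 had 0.37 (-0.21 to 0.95) and 0.56 (-0.46 to 1.57).

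Caffeine alone gave log2 fold changes of -0.33 (Cdh1) to 1.02 (Mmp7) against DEN, and the intervals of all 10 included 0. The interval of Mmp7 was -0.36 to 2.40 and that of Spp1, at 0.58, was -0.50 to 1.67. Both drugs gave -0.54 (Cdh1) to 1.05 (Mmp7) against DEN, again with all intervals including 0. With caffeine added to sorafenib, 9 of the 10 genes had a negative log2 fold change. Mmp7 had -1.67 (95% interval -3.20 to -0.15, adjusted p = 1.00) and Krt18 -0.63 (-1.23 to -0.03, adjusted p = 1.00) in DEN_CAF_SOR against DEN_SOR. The interaction was -2.69 for Mmp7 (95% interval -4.75 to -0.64), -1.26 for Epcam (-2.35 to -0.18) and -0.86 for Krt18 (-1.67 to -0.05), each with an adjusted p of 0.992. These comparisons share the DEN or the DEN_SOR livers.

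**Figure D5:**
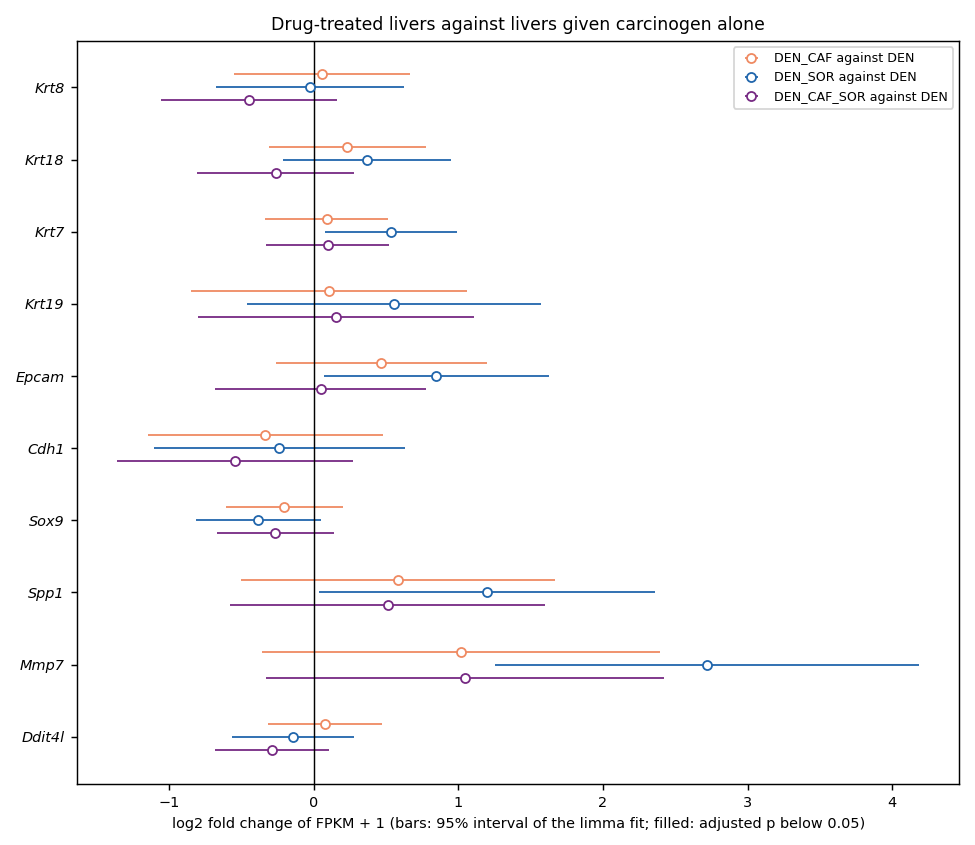
Log2 fold change of FPKM + 1 against DEN for each gene and drug group, with 95% intervals of the limma fit; open points mark adjusted p-values of 0.05 or more. No gene is called, and Mmp7 in DEN_SOR, at 2.72, has the interval farthest from 0.

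Other duct genes were examined in a wider list of 52 cholangiocyte and ductular genes that leaves out the 10. Of 32 tested, 4 rose in DEN livers (Tspan8, Anxa13, Tnfrsf12a and Slc10a2), 1 in DEN_CAF (Anxa13), 5 in DEN_SOR (Anxa13, Muc1, Cd24a, Slc10a2 and Cldn7) and 1 in DEN_CAF_SOR livers (Anxa13), and 0 fell by limma or edgeR. In that order of groups limma called 1.00%, 0.683%, 1.64% and 0.212% of all genes tested higher. edgeR called 10, 5, 10 and 4 of the 32 higher in the same order of groups, where it called 2.63%, 1.07%, 2.68% and 0.706% of all genes tested higher. The medians of the list were 0.56, 0.61, 0.87 and 0.56 in DEN, DEN_CAF, DEN_SOR and DEN_CAF_SOR, beside 0.03, 0.04, -0.00 and 0.03 over all genes tested. This list, too, was chosen with earlier results of these data known. Anxa13, an annexin of polarised epithelia, averaged 4.92 ± 1.74 FPKM in DEN (SD, n = 6), 6.09 ± 2.88 in DEN_CAF (n = 5), 10.4 ± 6.495 in DEN_SOR (n = 4), 5.67 ± 4.63 in DEN_CAF_SOR (n = 5) and 0.559 ± 0.277 in Untreated livers (n = 5). Its log2 fold changes were 1.89, 2.11, 2.71 and 1.89, with adjusted p-values of 0.00547, 0.00370, 0.000523 and 0.0161.

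Muc1, an apical mucin, averaged 2.70 ± 1.66 FPKM in DEN_SOR (SD, n = 4) and 0.132 ± 0.0636 FPKM in Untreated livers (n = 5; log2 fold change 1.56, adjusted p = 0.0110). Tspan8, a tetraspanin, averaged 24.8 ± 42.8 FPKM in DEN (n = 6) and 0.617 ± 0.450 FPKM in Untreated livers (2.73, adjusted p = 0.0300). DEN 4 was the highest of these at 111 FPKM, the DEN median was 5.46 FPKM, and without DEN 4 the mean was 7.65 ± 8.42 FPKM (n = 5). Tnfrsf12a, the receptor of the progenitor cell mitogen TWEAK, had 1.69 (adjusted p = 0.0377), and Slc10a2, the apical bile acid transporter of ducts and ileum, had 1.36 (adjusted p = 0.0157) in DEN livers. Without Untreated 3, 4 and 5 Anxa13 stayed called in DEN_SOR (2.73, adjusted p = 0.0319), and limma called it in no other group and none of the other genes of the wider and marker lists named here. Slc10a2 then had 0.85 (adjusted p = 0.371) in DEN and 0.75 (adjusted p = 0.470) in DEN_SOR livers. Sctr, the secretin receptor of large ducts, averaged 0.219 FPKM in DEN_SOR and was at 0 reads in all Untreated livers.

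Genes linked to the members' roles were counted in the same way. In DEN, DEN_CAF, DEN_SOR and DEN_CAF_SOR, limma called 1.00%, 0.683%, 1.64% and 0.212% of all genes tested higher. It called 1.04%, 0.33%, 0.981% and 0.283% lower. edgeR called 2.63%, 1.07%, 2.68% and 0.706% higher and 2.06%, 0.644%, 1.45% and 0.596% lower. Of 13 keratins and keratin partners tested, 2 rose in DEN_SOR livers, Ppl, a plakin that ties keratin to junctions (log2 fold change 1.27, adjusted p = 0.0172), and Dst (0.50, adjusted p = 0.0306), and limma called 0 in the other 3 groups. edgeR called 2 of them higher in DEN, 1 in DEN_CAF, 2 in DEN_SOR and 0 in DEN_CAF_SOR livers. Of 29 adherens and tight junction genes tested, Marveld3 rose in DEN (0.63, adjusted p = 0.0452) and DEN_SOR livers (0.81, adjusted p = 0.0208), Cldn7 rose in DEN_SOR livers (1.08, adjusted p = 0.0496) and Nectin3 fell in DEN_CAF livers (-0.54, adjusted p = 0.0437). With edgeR 1, 0, 2 and 1 rose and 1, 1, 1 and 0 fell in DEN, DEN_CAF, DEN_SOR and DEN_CAF_SOR. Of 4 repressors of Cdh1, 16 Notch and YAP genes and 14 osteopontin receptors and proteases tested, limma called 0 in any group against Untreated. edgeR called 0 of the repressors in any group, 1 of the Notch and YAP genes in DEN_SOR and 1 of the osteopontin genes in DEN livers.

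Markers of other cells that can carry these genes were counted beside them. The shares of all genes called are those given for the lists above. Of 9 macrophage markers tested, 0 were called by limma or edgeR in any group, and the sum of 13 ran from 63.5 to 272 FPKM in exposed and from 76.8 to 159 FPKM in Untreated livers. Among these 9 markers the log2 fold change was positive for 4, 4, 5 and 6 in DEN, DEN_CAF, DEN_SOR and DEN_CAF_SOR. The medians were -0.07, -0.11, 0.04 and 0.10. Trem2 and Gpnmb, which mark macrophages that make Spp1, averaged at most 0.453 and 0.263 FPKM in any exposed group and 0.0711 and 0.0241 FPKM in Untreated livers. Of 12 stellate cell and fibroblast markers tested, limma called 0 in any group and edgeR 1 in DEN and 1 in DEN_SOR livers, with 9, 9, 9 and 10 positive log2 fold changes and medians of 0.42, 0.45, 0.25 and 0.50 in DEN, DEN_CAF, DEN_SOR and DEN_CAF_SOR, and sums of 17.97 to 95.7 FPKM in exposed and 22.3 to 49.8 FPKM in Untreated livers. The mesothelial gene Gpm6a rose in DEN_SOR livers (log2 fold change 1.04, adjusted p = 0.0448) and the endothelial gene Stab2 fell there (-0.94, adjusted p = 0.0378). Of 7 endothelial markers tested, 1 had a positive log2 fold change in DEN_SOR against Untreated (median -0.55), 0 in DEN_SOR against DEN (-0.74) and 7 in DEN_CAF_SOR against DEN_SOR (0.59). Their summed level was 9.71 to 33.0 FPKM in DEN_SOR, 25.7 to 45.5 in DEN_CAF_SOR, 27.2 to 47.6 in DEN and 24.7 to 55.1 FPKM in Untreated livers. limma called 0 of 5 neutrophil markers tested in any group and edgeR 1 in DEN livers, and both called 0 of the 10 hepatocyte, 1 T and B cell, 1 exocrine pancreas and 2 intestine and gallbladder markers tested. Krt5, a mesothelial list member, had no listed reads in DEN_CAF, DEN_SOR and Untreated livers, and the intestine and gallbladder genes Cdx2 and Muc5b had none in DEN, DEN_CAF_SOR and Untreated livers. The part of these cells in the levels of the 10 genes was not tested.

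The genes whose FPKM ordered the 25 livers most like each member were listed by Spearman's rho, as a description over livers that share group differences and library totals. For Spp1 and Mmp7 the nearest gene was Adamtsl2 (rho of 0.952 and 0.954). For Epcam and Krt19 Muc1 was among the nearest 3 (0.921 and 0.918), and Sftpd was among those of Krt7, Epcam and Spp1 (0.899, 0.918 and 0.932). The nearest gene was Prr15l for Krt7 (0.914), Tmem45a for Krt19 (0.921) and Myef2 for Ddit4l (0.913). It was Gnb1 for Krt8 (0.872), Ifi27l2b for Krt18 (0.832), Septin11 for Cdh1 (0.898) and H2-D1 for Sox9 (0.810).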

How the data were processed

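RNA from 25 mouse livers was sequenced. Libraries were made with a SMARTer kit, per the labels' protocols. Reads were aligned with HISAT2 2.0.5 to GRCm39 and counted with featureCounts 1.5.0-p3, per the submitters' processing notes. Which annotation release and strand setting they chose is not given in the sources used here. Genes that overlap others are therefore uncertain, among them Krt7, Krt8 and Mmp7 (a long noncoding RNA on the opposite strand) and Spp1 (a transcript on the same strand).

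Although called FPKM, the values the authors deposited in 5 tables are a signal: whole reads per gene divided by 1 factor per library. Dividing each deposited column by its smallest positive value gave whole reads for 100% of values within 0.01 read, and these recovered reads gave the FPKM used here. Assigned reads per library limit the precision of the low genes most.

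A gene entered the tests when 4 or more libraries reached 1 FPKM. The test was that of limma 3.58.1 (R 4.3.3) on the log2 of FPKM + 1, a scale that understates changes of low genes. All 25 libraries were in 1 fit (20 residual degrees of freedom), with a mean-variance trend and two-sided p-values adjusted by Benjamini and Hochberg over the 12741 genes within each of 10 comparisons at 0.05. edgeR 4.0.16 and DESeq2 1.42.0 on the recovered reads, other scalings, filters and left-out livers were alternatives. The limma, edgeR and DESeq2 steps were tested on simulated data. Promoter motifs were searched with Python 3.11.15 in RefSeq windows of GRCm38.p6, while gene coordinates are those of the deposited tables.

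The text names all 10 genes, the genes of each wider list that limma called and, of the 3 genes most like each member, at least the nearest. It also names some genes that limma did not call or that did not enter its test, such as Ddit4, Sctr, Trem2 and Gpnmb. The members and lists were chosen with earlier results of these data known. Replicates are separate mice by their titles. Protein sequences were not used here.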

Additional observations from a re-analysis of the deposited data

Results flagged for a closer look

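In 50 sets of values (10 genes in 5 groups) 6 had a highest or lowest liver set apart from the others by most of the group's range. The cut-offs were those of Dixon's test, whose rate of about 1 in 20 assumes normal values and independent sets. The genes share their livers and go up and down together, and FPKM was not tested for normality. The count of 6 is therefore not set against that rate. In DEN_CAF 5 Krt8 was 319 FPKM, above the other DEN_CAF livers. In DEN_CAF_SOR 1 Krt19 was 11.3, Epcam 6.72 and Cdh1 14.5 FPKM, each above the other livers of that group. In DEN 4 Cdh1 was 40.2 FPKM, above the other DEN livers, and in Untreated 3 it was 1.15 FPKM, below the other Untreated livers.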

How the results depend on the processing

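Against Untreated, limma called 4, 5, 7 and 1 of the 10 genes in DEN, DEN_CAF, DEN_SOR and DEN_CAF_SOR livers. Shares in parentheses are of all genes tested that the same fit called higher. In DEN the count was 9 with edgeR (2.63%), 10 with DESeq2 (5.09%), 8 with a pseudocount of 0.1 (1.83%), 2 with no filter (0.319%), 6 with libraries 3 and 4 as a term (1.88%) and 6 with mitochondrial reads left out (1.64%). In DEN_CAF it was 9 with DESeq2 (2.16%) and 3 with no filter (0.250%). In DEN_CAF_SOR it was 5 with edgeR (0.706%), 7 with DESeq2 (1.81%) and 5 with a pseudocount of 0.1 (0.557%). It was 2 with TMM scaling (0.244%), mitochondrial reads left out (0.294%) or libraries 3 and 4 as a term (0.440%), and 0 with no filter (0.0727%) or a filter in 10 libraries (0.219%). Krt7 did not pass the filter with TMM scaling or a filter in 10 libraries. Nor did it pass in the fits without, or only with, libraries numbered 3 and 4. Counts from those fits are out of 9 genes. Against DEN, DESeq2 called 1 gene in DEN_SOR livers, and no other alternative called any. Leaving mitochondrial reads out moved the median log2 fold change of all genes to 0.12 in DEN_CAF livers against Untreated.

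Without Untreated 3, 4 and 5 the counts were 0, 0, 0 and 0, and with edgeR, chosen after seeing the data, 1, 1, 1 and 0. Without all libraries numbered 3 and 4 they were 0, 1, 4 and 0 (0.965%, 0.949%, 2.50% and 0.218%), and with those libraries alone, also chosen after seeing the data, 0, 0, 0 and 0 (1.24%, 0.0686%, 0.137% and 0.206%). These fits use fewer samples. Leaving out 1 liver gave 1 to 5 calls in DEN, 1 to 5 in DEN_CAF, 3 to 8 in DEN_SOR, 0 to 2 in DEN_CAF_SOR and 0 in every drug comparison. The share of all genes called higher moved as well. For example, in DEN_SOR it was 0.513% without DEN_SOR 3 and 2.62% without DEN_SOR 4. In DEN it was 0.574% without Untreated 1 and 1.08% without DEN 1. It was 0.394% in DEN_CAF without DEN_CAF 3 and 0.0789% in DEN_CAF_SOR without DEN_CAF_SOR 1. In DEN_SOR against DEN it was 0.0788% without DEN 1. The log2 fold change of Cdh1 in DEN_CAF_SOR against DEN, -0.54, was 0.048 without all libraries numbered 3 and 4; the cause was not tested.

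Replicate numbers are shared between groups. Livers of different groups were correlated over the genes tested after each gene's group mean of log2(FPKM + 1) was subtracted. These are correlations of what remains within groups, not of whole expression profiles. Of 46 same-numbered pairs of livers 25 correlated above 0.1 (-0.28 to 0.54, median 0.13), against 47 of 203 differently numbered pairs (median -0.026). Not every same-numbered pair was above 0.1, and the labels give no shared litter, batch or day, so the numbers were not used as pairs. A replicate block gave 4, 6, 6 and 2 calls (1.34%, 0.785%, 1.35% and 0.275%), and not all of the same genes. In DEN Krt18 and Cdh1 were no longer called and Spp1 and Mmp7 were. In DEN_CAF Krt8 was added, in DEN_SOR Krt19 and Ddit4l were no longer called and Krt8 was, and in DEN_CAF_SOR Mmp7 was added.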
